A study of Mus musculus with 8 samples.

Results

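The aminoacyl-tRNA synthetases join each amino acid to its tRNA. They were taken from the tables of 31053 genes by symbol: 36 genes, of which 20 encode the cytosolic enzymes and 16, with symbols ending in 2, the mitochondrial ones. All 36 had a single entry in the tables, where Mars1 is listed under its older symbol Mars. The comparison of the cytosolic with the mitochondrial genes was made across cell classes, melanoma states and both host genotypes, in single-cell RNA-seq of 8 B16F10 tumours. B16F10 is a mouse melanoma line from C57BL/6 mice, and its cells carry intact *Atf4* in every tumour. They were injected subcutaneously in the flank of mice, and the tumours were taken at 300 mm3. The labels give an age of 12 weeks, and the study's methods a younger one for its in vivo work. The hosts were *Atf4* WT/WT (n = 4, 2 male and 2 female) or *Atf4* Δ/Δ (n = 4, 3 male and 1 female). Both genotypes carried Rosa26::CreERT2, a tamoxifen-inducible Cre expressed throughout the body, and both received tamoxifen, so that the floxed allele was lost from all host tissues and not from a single cell type. Host cells are thus the only cells whose genotype differs, and the study describes the excision as nearly, not fully, complete.

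Every protein is made from amino acids that a synthetase has first attached to a matching tRNA. Cytosolic enzymes charge tRNAs for the ribosomes that translate nuclear genes, whereas the mitochondrial set serves the small genome of the organelle. Both sets are encoded in the nucleus. *Gars* and *Kars* make both forms from a single gene, *Eprs* encodes a bifunctional enzyme for glutamate and proline, and *Farsa* and *Farsb* encode the subunits of 1 cytosolic enzyme. ATF4 is the transcription factor of the integrated stress response, translated when amino acids run short or proteins misfold. It is known to raise genes for amino acid synthesis, amino acid import and tRNA charging, through CARE sequences (C/EBP-ATF response elements) in their promoters.

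The tumours gave 37283598 to 74942137 UMIs each, and 28411 of 41925 barcodes passed the filters (2709 to 5576 a tumour). Clustering was rebuilt with the 36 genes and *Atf4* left out of the variable genes. It gave 23748 melanoma-like cells, 730 CAF-like cells (10 to 241 a tumour) and 207 TAM-like cells, a cancer-associated fibroblast-like and a tumour-associated macrophage-like class. Summed melanoma markers were at 15490 to 18991 CPM in melanoma-like cells, fibroblast markers at 23636 to 46826 CPM in CAF-like cells and immune markers at 23855 to 31416 CPM in TAM-like cells. Melanoma markers also reached 1151 to 5622 CPM in CAF-like cells, of which 97 carried more than 5 of 10 such markers, and 1164 to 2397 CPM in TAM-like cells. No doublets were removed. *Atf4* itself checked the labels. In CAF-like cells it was at 304, 327, 355 and 314 CPM in the 4 *Atf4* WT/WT tumours and at 172, 117, 175 and 99.9 CPM in the 4 *Atf4* Δ/Δ tumours, with no overlap. In melanoma-like cells it was at 261 to 416 CPM in *Atf4* WT/WT hosts and at 318 to 425 CPM in *Atf4* Δ/Δ hosts. In TAM-like cells it rested on 1 to 18 UMIs a tumour and the genotypes overlapped. Values below are CPM, a gene's share of all UMIs summed over a class in a tumour, so they are shares of the mRNA captured and not molecules per cell. Single genes are given after TMM scaling, and sums over genes, and *Lars2* beside Gm42418, without it.

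In melanoma-like cells the cytosolic genes took 2639 to 3514 CPM in sum (median of 8 tumours 2932), and the mitochondrial genes 229.5 to 257.6 (median 244). *Eprs* was highest at 599 ± 92 CPM (SD, n = 8), followed by *Gars* (glycine) at 440.1 ± 70.6, *Sars* (serine) at 372 ± 57, *Nars* (asparagine) at 225 ± 42 and *Rars* (arginine) at 150.1 ± 18 CPM. Of the 20 highest genes 19 were cytosolic. The exception was *Iars2*, the mitochondrial isoleucine enzyme, at 51.9 ± 4.9 CPM in place 17, and the lowest cytosolic gene was *Mars1* (methionine) at 37.1 ± 2.6 CPM in place 21. *Lars2* (leucine) followed at 32.4 ± 7.8 CPM, and *Pars2* (proline) was lowest at 1.93 ± 0.28 CPM. Only 5 of the 35 pairs of neighbours in this order had ranges over the 8 tumours that did not overlap: *Sars* above *Nars*, *Qars* above *Iars2*, *Yars2* above *Vars2*, *Vars2* above *Sars2*, and *Wars2* above *Pars2*. The 3′ assay counts 1 end per molecule, so these levels need no length scaling, although capture can still differ from gene to gene. Reads of *Aars* may be shared with *Exosc6*, which overlaps it on the same strand over 1326 bases, and those of *Iars* with the near copy Gm4849, 96.0% identical over 1656 bases. *Eprs* and *Yars* also share short stretches (99 to 207 and 100 to 216 bases, at least 95% identical) with many other genes, and *Cars2*, *Farsa*, *Qars* and *Tars2* with a few (102 to 171 bases).

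The melanoma-like cells fell into 9 clusters that were called by marker lists and by their leading gene. The stress-response state, led by *Fgf21*, held 4601 cells (344 to 818 a tumour) and had a median UMI count per cell close to that of its tumours (ratio 0.980). In this state most cytosolic genes were higher than in the other melanoma-like cells of the same tumours, and more mitochondrial genes fell than rose. Of the 20 cytosolic genes 13 rose, 3 fell and 4 did not pass the test, with a median log2 difference of 0.42. Of the 16 mitochondrial genes 4 rose, 8 fell and 4 did not pass, with a median of -0.20. Over all 11509 genes tested the median was 0.0051 and 67.1% were called (34.5% higher, 32.6% lower), so a call alone is common here and the direction and size carry the description. The states were drawn from other genes of the same cells, so these calls by edgeR's quasi-likelihood test say how evenly the 8 tumours share a difference.

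*Sars* (ENSMUSG00000068739, chr3:108424865-108445209, minus strand, GRCm38) differed most. Its level in the stress-response state was 581 to 679 CPM (median 659), and in the other melanoma-like cells 258 to 382 CPM (median 311). The ranges did not overlap, and the log2 difference was 1.06 ± 0.05 (SE, n = 8 tumours in both arms, adjusted p = 1.8e-14). *Eprs* (ENSMUSG00000026615, chr1:185363044-185428360, plus strand) was at 864 to 959 CPM (median 897) against 423 to 625 (median 507), a log2 difference of 0.80 ± 0.04 (adjusted p = 7.6e-14). *Nars* was at 286 to 403 CPM (median 342) against 149 to 246 (median 199), a log2 difference of 0.82 ± 0.04 (adjusted p = 1.2e-13). All 8 tumours moved upward for each of these genes. *Gars* stood at 603 to 768 CPM against 328 to 505, 0.83 ± 0.04 on the log2 scale (adjusted p = 1.7e-13), and *Rars* at 180 to 235 CPM against 121 to 158, 0.57 ± 0.03 (adjusted p = 1.9e-13). The remaining 8 that rose were *Lars* (0.87), *Wars* (tryptophan, 0.74), *Aars* (alanine, 0.60), *Iars* (0.47), *Cars* (cysteine, 0.42), *Tars* (threonine, 0.42), *Yars* (tyrosine, 0.32) and *Qars* (glutamine, 0.13), in log2 differences.

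*Kars* (lysine), *Mars1* and *Vars* (valine) were the cytosolic genes that fell. *Kars* was at 56.7 to 70.3 CPM (median 65.2) against 73.4 to 86.6 (median 82.8), a log2 difference of -0.33 ± 0.04 (adjusted p = 1.9e-07). *Mars1* was at 25.5 to 33.1 CPM (median 28.3) against 35.1 to 42.3, a log2 difference of -0.41 ± 0.05 (adjusted p = 4.1e-07). The ranges were apart for both genes. *Vars* fell by a small log2 value, -0.09. *Dars* (aspartate, 0.05), *Farsb* (0.01), *Hars* (histidine, -0.08) and *Farsa* (-0.10) did not pass the test. Among the mitochondrial genes, *Iars2* (ENSMUSG00000026618, chr1:185284726-185329396, minus strand) was at 33.2 to 44.8 CPM (median 41.1) against 44.9 to 57.8 (median 53.4), a log2 difference of -0.41 ± 0.04 (adjusted p = 3.2e-08). *Mars2* was at 3.55 to 5.23 CPM against 5.45 to 8.42, on 15 to 31 UMIs a tumour in the state, and fell by 0.66 ± 0.10 on the log2 scale (adjusted p = 8.2e-06). *Yars2* fell by 0.30 ± 0.07 (adjusted p = 5.4e-04) with overlapping ranges. *Sars2*, *Hars2*, *Vars2*, *Cars2* and *Tars2* also fell, by log2 values between -0.34 and -0.14, while *Rars2* (0.41), *Ears2* (glutamate, 0.39), *Fars2* (phenylalanine, 0.31) and *Nars2* (0.30) rose. *Lars2* (0.02), *Wars2* (-0.01), *Aars2* (-0.21) and *Pars2* (-0.43 ± 0.24) did not pass.

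**Figure D1:**
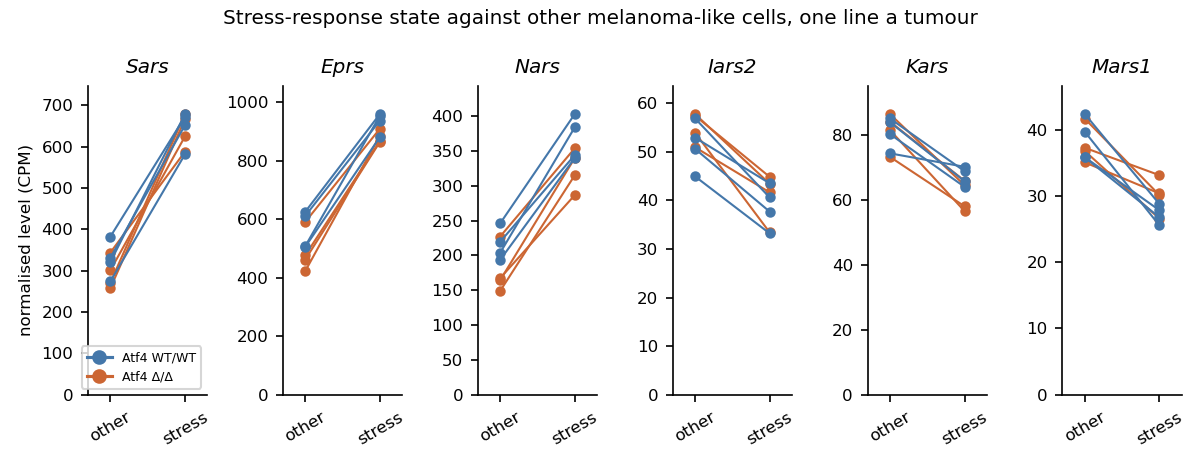
Normalised level (CPM, linear axes from 0) of 6 genes in the stress-response state and in the other melanoma-like cells, 1 line a tumour, coloured by host genotype (4 tumours each). Sars, Eprs and Nars go up in all 8 tumours and Iars2, Kars and Mars1 go down in all 8, and the genotypes are interleaved.

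For 13 amino acids the symbols of the cytosolic and the mitochondrial gene differ only in a final digit, and these genes were paired. In all 13 the log2 difference of the cytosolic gene in the stress-response state was above that of its mitochondrial counterpart, and the 2 genes of a pair often moved in opposite directions. For cysteine, isoleucine, serine, threonine and tyrosine the cytosolic gene rose and the mitochondrial gene fell. The widest gap was for serine, where *Sars* was at 1.06 and *Sars2* at -0.34. For asparagine and arginine both rose. For alanine, leucine and tryptophan the cytosolic gene rose and the mitochondrial one did not pass. For methionine and valine both fell, and for histidine only *Hars2* passed, downward. Phenylalanine, glutamate and proline also have both enzymes among the genes, but under symbols that do not pair, and were left out. For phenylalanine the order was the other way: *Fars2* rose (0.31), and *Farsa* and *Farsb* did not pass. *Eprs*, for glutamate and proline, rose (0.80) more than *Ears2* (0.39), and *Pars2* did not pass. Summed over the state, cytosolic genes took 3798 to 4292 CPM (median 4033) and mitochondrial genes 205.0 to 233.1.

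**Figure D2:**
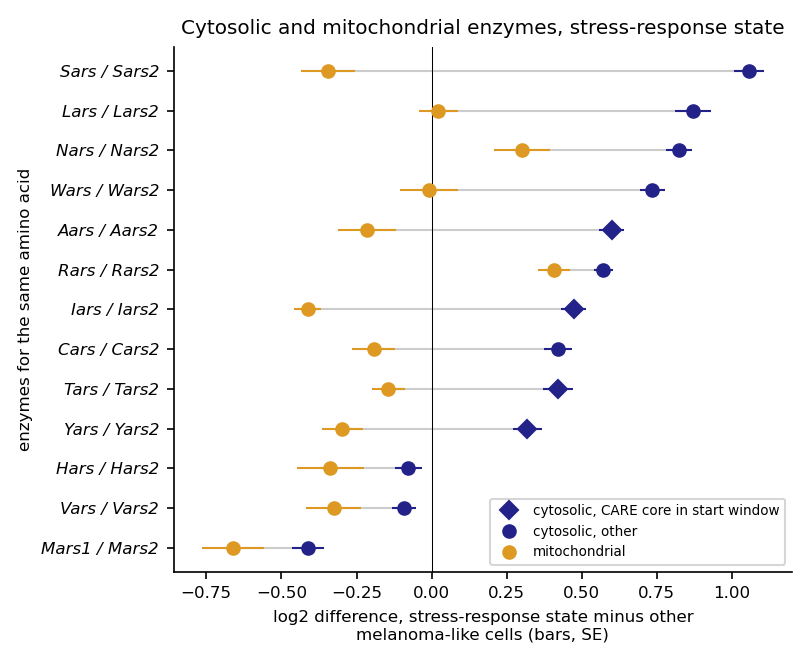
log2 difference (stress-response state minus other melanoma-like cells, bars SE over 8 tumours) of the cytosolic and the mitochondrial gene for the 13 amino acids paired by symbol. Phenylalanine, glutamate and proline are not shown. Each cytosolic point (blue) lies to the right of its mitochondrial partner (orange), and diamonds mark the cytosolic genes with a CARE core in the window at the start site, 4 of which have a partner here.

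The core of a CARE, TGATGNAA on either strand, was looked for in RefSeq's windows from 250 bases before to 50 after each start (GRCm38.p6, 32851 windows). It occurs in 3.97% of all windows, in those of 5 of the 13 cytosolic genes that have an entry and of 0 of the 14 mitochondrial ones. A short stretch with a match is shown for each of the 5 genes because all 5 genes that hold it rose in the stress-response state. Capitals mark the match, and the strand is that of the gene, on which the match reads in reverse complement except in *Yars*.
Aars, chr8:111033840-111033869, plus strand: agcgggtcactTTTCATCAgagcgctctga
Gars, chr6:55037960-55037989, plus strand: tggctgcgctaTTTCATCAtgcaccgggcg
Iars, chr13:49682126-49682155, plus strand: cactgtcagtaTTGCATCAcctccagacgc
Tars, chr15:11399655-11399684, minus strand: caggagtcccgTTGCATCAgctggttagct
Yars, chr4:129189895-129189924, plus strand: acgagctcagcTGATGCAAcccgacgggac

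The window of *Aars* holds 2 matches, of which 1 is shown. The log2 differences of the 5 genes in the stress-response state were 0.32 to 0.83, with a median of 0.47. Of the 8 cytosolic genes with an entry and no match 3 rose and 2 fell, from -0.41 to 1.06 with a median of 0.033, and *Sars*, the gene that moved most, is among them. The window of *Sars* lies wholly outside the gene interval given above, so the first bases of that interval were not searched. Of the 14 mitochondrial genes with an entry 4 rose and 7 fell (median -0.17). A match is a run of letters in a short window and the genes are few. The E-box CACGTG, which reads the same on both strands, occurs in 7.15% of all windows, in 4 of the 13 cytosolic and 1 of the 14 mitochondrial ones.

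Several synthetases sit in the multisynthetase complex, a cytosolic assembly held by the AIMP scaffold proteins. Of its 11 genes on the list, *Eprs*, *Lars*, *Rars*, *Iars*, *Qars* and the scaffold gene *Aimp1* rose in the stress-response state, 3 fell, and the median log2 difference was 0.13. Genes that work beside the synthetases moved both ways: of 13 tRNA charging partners 3 rose and 3 fell, with a median of -0.06. *Aimp1* rose (0.34), while *Aimp2* (-0.29) and *Pstk*, a kinase that acts on selenocysteine tRNA (-0.32), fell. All 33 of the measured genes on the amino acid response list rose, with a median of 1.23, among them *Ddit3* (1.75), *Slc7a11* (1.69), *Atf3* (1.19) and *Slc3a2* (0.76). That list holds genes that can also define the state, so its count is a description of the cluster. *Atf4* was 0.84 higher on the log2 scale.

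Cytosolic and mitochondrial genes differed in where they peaked. Among the 9 states, 12 of the 20 cytosolic genes had their highest log2 difference in the stress-response state, as did 3 of the 16 mitochondrial genes. The commonest top state of the mitochondrial genes was the G2/M state led by *Cenpf*, with 6 of 16. The spread from the lowest to the highest state was 0.37 to 1.68 for cytosolic genes (median 0.77) and 0.33 to 1.23 for mitochondrial ones (median 0.71). *Sars* had the widest, from 1.06 in the stress-response state to -0.62 in the G2/M state led by *Cenpa*. Summed cytosolic levels ran from a median of 2519 CPM in that G2/M state to 4033 in the stress-response state, and summed mitochondrial levels from 221 in the stress-response state to 266 in the G1/S and S phase state led by *Ung*.

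**Figure D3:**
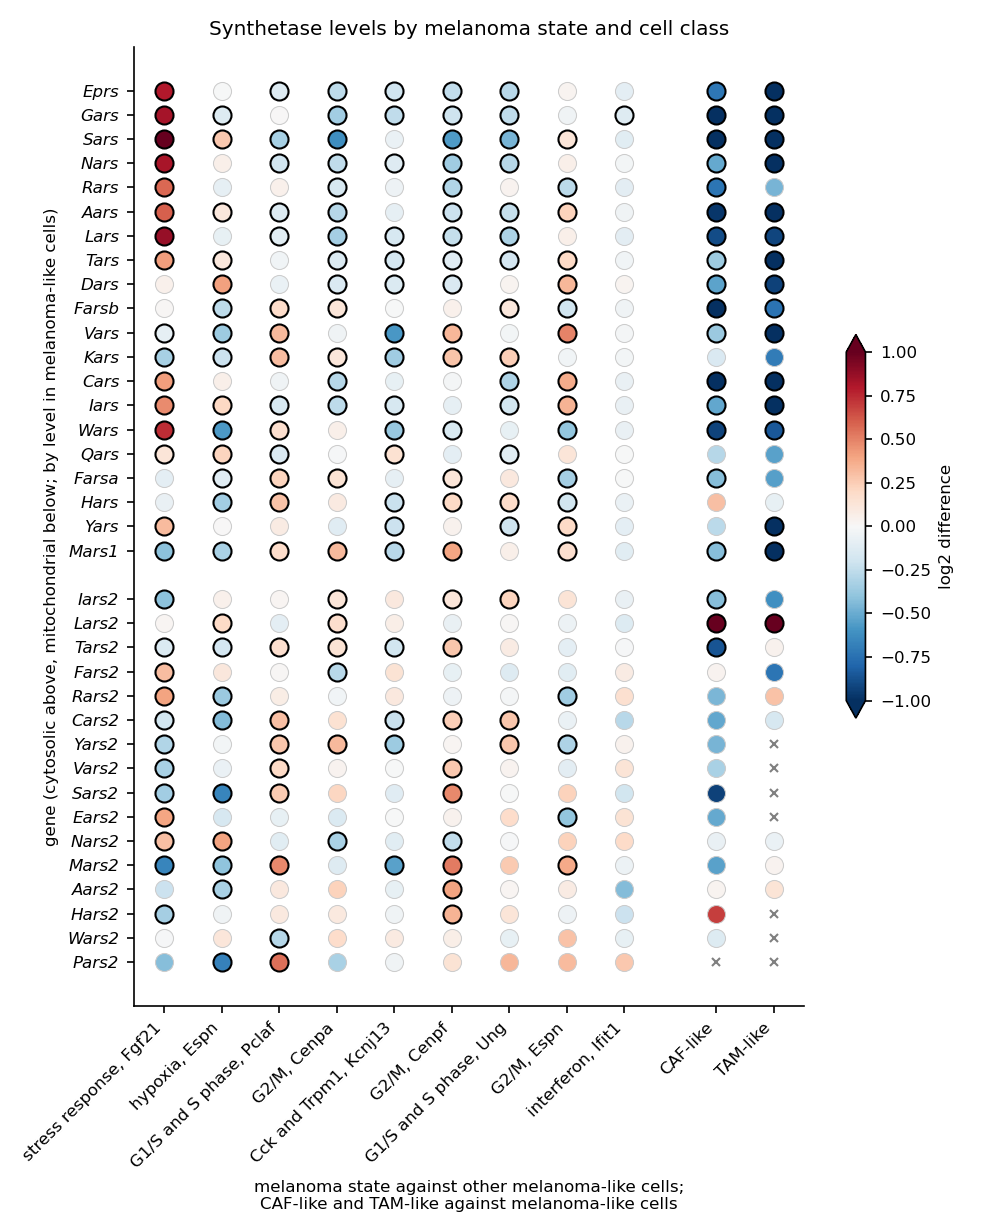
log2 difference (colour, from -1 to 1, stronger values at the end colours) of the 36 genes in each of 9 melanoma states against the other melanoma-like cells and in CAF-like and TAM-like cells against melanoma-like cells. Black rings mark an adjusted p under 0.05. Crosses stand in place of genes with at most 3 UMIs over all CAF-like or TAM-like cells compared. The first column is red for most cytosolic genes and blue for most mitochondrial ones, and the CAF-like and TAM-like columns are blue for most cytosolic genes with Lars2 red.

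For each of the remaining 8 states the other melanoma-like cells include the stress-response state, where the median cytosolic sum was 4033 CPM. In the remaining states this median was 2519 to 2954 CPM. A fall there is thus relative to a reference that holds the stress-response cells, and the part of this was not tested. In the G2/M states led by *Cenpf* and *Cenpa* more cytosolic genes fell than rose. In the G2/M state led by *Cenpf*, *Sars* was at 189 to 358 CPM against 327 to 484 in the other melanoma-like cells, a log2 difference of -0.57, and *Nars* (-0.36), *Rars* (-0.30), *Eprs* (-0.25) and *Gars* (-0.21) were also lower. *Vars* was higher there, at 99.7 to 115 CPM against 76.2 to 95.5 (0.33), as were *Mars1* (0.40), *Kars* (0.28), *Hars* (0.20) and the mitochondrial *Sars2* (0.48). Those were, except *Hars*, genes that fell in the stress-response state. Of the cytosolic genes 5 rose and 10 fell (median -0.11) and of the mitochondrial genes 8 rose and 1 fell (median 0.13), where 53.5% of all genes were called (26.1% higher, 27.4% lower). In the G2/M state led by *Cenpa* 4 cytosolic genes rose and 11 fell (median -0.15) and 4 mitochondrial genes rose and 2 fell (median 0.11, with 50.2% of all genes called, 24.4% higher and 25.8% lower). *Mars1* (0.32), *Yars2* (0.32), *Lars2* (0.18), *Farsa* (0.14) and *Farsb* (0.13) were higher there, and *Sars* (-0.62), *Gars* (-0.35), *Lars* (-0.34), *Eprs* (-0.26) and *Nars* (-0.26) lower. Without the tumour block *Lars2*, *Farsa*, *Farsb* and *Nars* were not called in it (adjusted p 0.110 to 0.386 by edgeR), and *Farsa* also not with no filter on low counts.

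In both G1/S and S phase states more mitochondrial genes rose than fell, although for that led by *Ung* the share that rose was close to the share over all genes. In the state led by *Pclaf* 7 mitochondrial genes rose and 1 fell (median 0.10), and 7 cytosolic genes rose and 7 fell (median -0.02), where 62.1% of all genes were called (29.8% higher, 32.4% lower). *Vars* (0.32), *Kars* (0.31), *Hars* (0.29), *Farsa* (0.22) and *Farsb* (0.18) were higher and *Sars* (-0.33), *Nars* (-0.20), *Iars* (-0.17), *Qars* (-0.15) and *Eprs* (-0.13) lower. Without the tumour block *Nars*, *Iars* and *Eprs* were not called in this state (adjusted p 0.292, 0.0547 and 0.381 by edgeR). *Kars* was at 89.3 to 104 CPM in it and at 67.7 to 81.4 in the other melanoma-like cells, with no overlap. In the state led by *Ung* 3 mitochondrial genes rose and 0 fell, and 3 cytosolic genes rose and 11 fell (40.6% of all genes called, 19.8% higher and 20.8% lower). The higher ones with the smallest p were *Kars* (0.24), *Hars* (0.19), *Iars2* (0.22), *Cars2* (0.28) and *Yars2* (0.28), and *Sars* was again lowest (-0.46).

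In the hypoxia state led by *Espn* 6 cytosolic genes rose and 8 fell, 2 mitochondrial genes rose and 7 fell, and 62.6% of all genes were called (31.6% higher, 31% lower). *Dars* was at 127 to 146 CPM in it and at 92.0 to 113 in the other melanoma-like cells, with no overlap (log2 difference 0.41 ± 0.03). *Wars* was at 38.0 to 47.3 CPM against 53.9 to 77.2, also with no overlap (-0.57 ± 0.05). *Sars* (0.27), *Qars* (0.22), *Iars* (0.21) and *Nars2* (0.41 ± 0.10) were higher too, and *Vars* (-0.36), *Hars* (-0.35), *Mars1* (-0.32) and *Farsb* (-0.26) lower. A second state led by *Espn*, with G2/M markers, had 9 cytosolic genes higher and 5 lower (median 0.09) and 1 mitochondrial gene higher and 3 lower (48.5% of all genes called, 25.1% higher and 23.5% lower). *Vars* (0.49), *Cars* (0.37), *Iars* (0.35), *Dars* (0.33) and *Aars* (0.23) rose there and *Wars* (-0.39), *Rars2* (-0.35), *Farsa* (-0.34), *Rars* (-0.27) and *Farsb* (-0.20) fell. Without the tumour block *Aars* was not called there (adjusted p 0.0614 by edgeR).

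The state with *Cck* and *Trpm1*, led by *Kcnj13*, had 13 cytosolic genes lower and *Qars* alone higher (0.15, or 0.084 and not called with no filter on low counts), and 4 mitochondrial genes lower, where 53.6% of all genes were called (28.1% higher, 25.5% lower). *Vars* was at 50.1 to 73.6 CPM in it against 82.0 to 98.6, a log2 difference of -0.58, and *Wars* (-0.38), *Kars* (-0.36), *Gars* (-0.25) and *Eprs* (-0.20) followed, the last 2 of which were not called without the tumour block. In the interferon state led by *Ifit1*, the smallest with 892 cells, *Gars* alone passed (-0.13, adjusted p = 0.042 by edgeR), a call lost without *Atf4* WT/WT replicate 2, 3 or 4 or *Atf4* Δ/Δ replicate 1 or 4, and 5.47% of all genes were called (3.07% higher, 2.39% lower).

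Over the 72 sums of tumour and state, cytosolic genes varied together more than mitochondrial ones. The median Spearman correlation was 0.22 over the 190 cytosolic pairs (-0.64 to 0.93), 0.019 over the 120 mitochondrial pairs and -0.057 over the 320 mixed pairs. The 72 points share tumours, libraries and depth, and the values are a description. The mitochondrial genes also rest on far fewer UMIs (median sums of 244 against 2932 CPM in melanoma-like cells). The part of this in their lower correlations was not tested. Of 10749 genes, those with the highest mean correlation with the cytosolic genes were *Mthfd2* (0.42), *Slc7a1*, *Phf10*, *Trib3*, *Pck2*, *Eif3c*, *Cth*, *Slc6a9*, *Ddr2* and *Aldh18a1* (0.39). *Gars* was the cytosolic gene most like the rest of its set (mean 0.41) and *Farsa* the least (-0.16).

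CAF-like cells held less of the cytosolic synthetases than melanoma-like cells of the same tumours. Of the 20 cytosolic genes 16 were lower and 0 higher by edgeR, with a median log2 difference of -0.53 against -0.12 over all 11774 genes, of which 53.5% were called (25.2% higher, 28.4% lower). The cytosolic sum was 1392 to 1973 CPM in CAF-like cells. *Sars* was at 142 to 193 CPM in CAF-like and 299 to 461 in melanoma-like cells, -1.12 ± 0.11 on the log2 scale (adjusted p = 4.9e-11). *Gars* was at 118 to 293 CPM against 364 to 576 (-1.05 ± 0.11), and *Farsb* (-1.23 ± 0.13), *Aars* (-0.97 ± 0.13) and *Lars* (-0.90 ± 0.12) followed. *Hars*, at 0.30, *Kars*, *Qars* and *Yars* did not pass. The mitochondrial sum, 171.5 to 276.6 CPM, overlapped that of melanoma-like cells, and 3 mitochondrial genes (*Iars2*, *Tars2* and *Pars2*, the last on 1 UMI, a ratio of 0.133 with a counting interval of 0.00335 to 0.742) were lower. Without the 97 cells that carry melanoma markers the cytosolic median was -0.85.

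*Lars2* (ENSMUSG00000035202, chr9:123366927-123462666, plus strand) was the only synthetase called higher in CAF-like than in melanoma-like cells in the main test. Without the cells that carry melanoma markers, or without the tumour block, 2 synthetases were called higher. *Lars2* was at 98.2, 107, 171 and 52.6 CPM in the *Atf4* WT/WT tumours and at 76.3, 83.9, 33.8 and 55.8 CPM in the *Atf4* Δ/Δ tumours, and at 24.2 to 44.6 CPM in melanoma-like cells. Its log2 difference was 1.41 ± 0.14 (adjusted p = 4.6e-11). In TAM-like cells (7 tumours, since 1 *Atf4* WT/WT tumour held 3 such cells) it was 1.41 ± 0.31 higher as well (adjusted p = 3.6e-05), on 45 UMIs in all, from 17.4 to 185 CPM. The cytosolic genes were lower there too, 15 of 20 with 0 higher and a median of -1.23 against -0.58 over all genes (38.7% called, 12.3% higher and 26.4% lower). *Eprs* was at 69.7 to 150.1 CPM in TAM-like and 523 to 799 in melanoma-like cells (-2.51 ± 0.20), and *Gars* (-2.56 ± 0.23), *Sars* (-2.08 ± 0.23), *Nars* (-1.33 ± 0.24) and *Cars* (-2.70 ± 0.46, on 7 UMIs) followed. *Vars2* had 0 UMIs in TAM-like cells, which allows at most 5.62 CPM over the class and makes it at least 1.87-fold lower, and *Yars2* had 1 UMI (ratio 0.106, counting interval 0.00267 to 0.589). Of the 16 mitochondrial genes 12 had under 10 UMIs in all TAM-like cells, too few to place them.

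*Lars2* is set here beside Gm42418, an RNA gene that overlaps ribosomal RNA repeats. In melanoma-like cells *Lars2* took 33.7, 44.0, 42.02 and 24.6 CPM in the *Atf4* WT/WT tumours, where Gm42418 took 1182, 1642, 1869 and 689. In the *Atf4* Δ/Δ tumours *Lars2* took 29.2, 28.4, 27.8 and 28.1, where Gm42418 took 683, 636, 629 and 613. The *Atf4* WT/WT tumour with the lowest *Lars2* was also the one with the lowest Gm42418 of its group. In CAF-like cells Gm42418 took 4880, 9191, 11880 and 3126 CPM in *Atf4* WT/WT hosts and 2916, 1621, 6736 and 1829 in *Atf4* Δ/Δ hosts, and in TAM-like cells 1916 to 9737. *Lars2* took 91.6, 105.5, 160.0 and 50.4 CPM in CAF-like cells of the *Atf4* WT/WT tumours, in the order of their Gm42418, and 65.2, 76.5, 49.0 and 48.1 CPM in those of the *Atf4* Δ/Δ tumours, where the tumour with the lowest Gm42418 had the highest *Lars2*. *Lars2* was also among the leading genes of a cluster of 796 cells that was left unnamed, with a median of 1047 UMIs a cell, led by AY036118 and Gm42418. The part of these RNAs in the *Lars2* values was not tested.

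**Figure D4:**
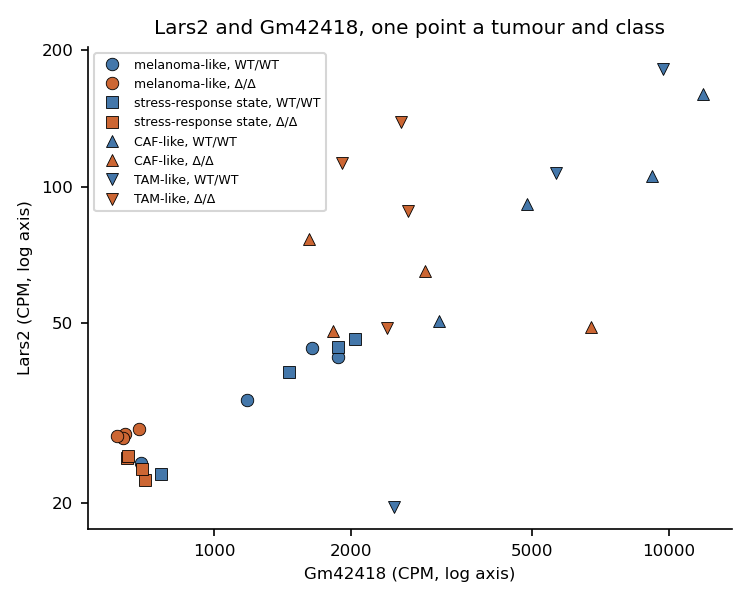
Lars2 against Gm42418 (CPM, both axes logarithmic), 1 point a tumour and class, coloured by host genotype. Melanoma-like cells and their stress-response state lie at the lower left, CAF-like and TAM-like cells mostly above and to the right, and 3 of the 4 Atf4 WT/WT melanoma-like points stand apart from the Atf4 Δ/Δ ones on both axes.

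Host genotype was compared first in CAF-like cells, whose own *Atf4* is lost. *Atf4* was lower in *Atf4* Δ/Δ hosts by a log2 difference of -1.30 ± 0.20 (adjusted p = 0.0375). No synthetase passed in CAF-like cells: edgeR called 0 of the 19 tested (17 cytosolic, 2 mitochondrial) and 0.0431% of all 4638 genes. DESeq2 called 0 synthetases. By edgeR 4 cytosolic and 1 mitochondrial gene had an unadjusted p under 0.05, as did 301 of all 4638 genes. All 17 cytosolic log2 differences were negative, with a median of -0.20 against -0.012 over all genes, and of -0.33 without the cells that carry melanoma markers. For *Tars* and *Farsa*, at -0.05 and -0.20 in the fit, the *Atf4* Δ/Δ tumour with 10 CAF-like cells was the highest of its group, at 125 and 100.3 CPM on 5 and 4 UMIs. *Gars* was at 223, 236, 227 and 304 CPM in *Atf4* WT/WT hosts and at 207, 142, 176 and 187 CPM in *Atf4* Δ/Δ hosts, -0.46 ± 0.18 (adjusted p = 0.691). *Eprs* was at 465, 361, 429 and 440.4 CPM against 349, 317, 125 and 329.8, -0.45 ± 0.20 (adjusted p = 0.733). The genotypes did not overlap for *Eprs* and *Gars*, as was so for 1.72% of all genes in the lower direction. *Cars* was at 51.7, 19.3, 58.6 and 71.7 CPM against 36.3, 27.9, 25.1 and 21.0, with overlap, -0.94 ± 0.33 (adjusted p = 0.622). *Lars2* (-0.71 ± 0.31) and *Iars2* (0.28 ± 0.30) were the mitochondrial genes tested.

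Summed over the 20 cytosolic genes, CAF-like cells held 1754 to 1973 CPM in *Atf4* WT/WT hosts (mean 1849 ± 91, SD, n = 4) and 1392 to 1502 in *Atf4* Δ/Δ hosts (mean 1446 ± 45, n = 4), with no overlap. Without the cells that carry melanoma markers the ranges were 1503 to 1683 and 1187 to 1445, again apart. The sum weighs genes by their level, and *Eprs* and *Gars*, themselves without overlap, were its largest parts (324.6 and 184.2 CPM over all CAF-like cells). Sums of other gene sets were not compared. The melanoma markers were at 2187 to 5622 CPM in CAF-like cells of *Atf4* WT/WT hosts and at 1151 to 4512 CPM in those of *Atf4* Δ/Δ hosts. The lowest *Eprs* value came from the *Atf4* Δ/Δ tumour with 10 CAF-like cells (5 UMIs of *Eprs*), and without that tumour *Eprs* was -0.35 and *Gars* -0.45. The mitochondrial sum was 221.6 to 276.6 against 171.5 to 225.1 and overlapped.

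**Figure D5:**
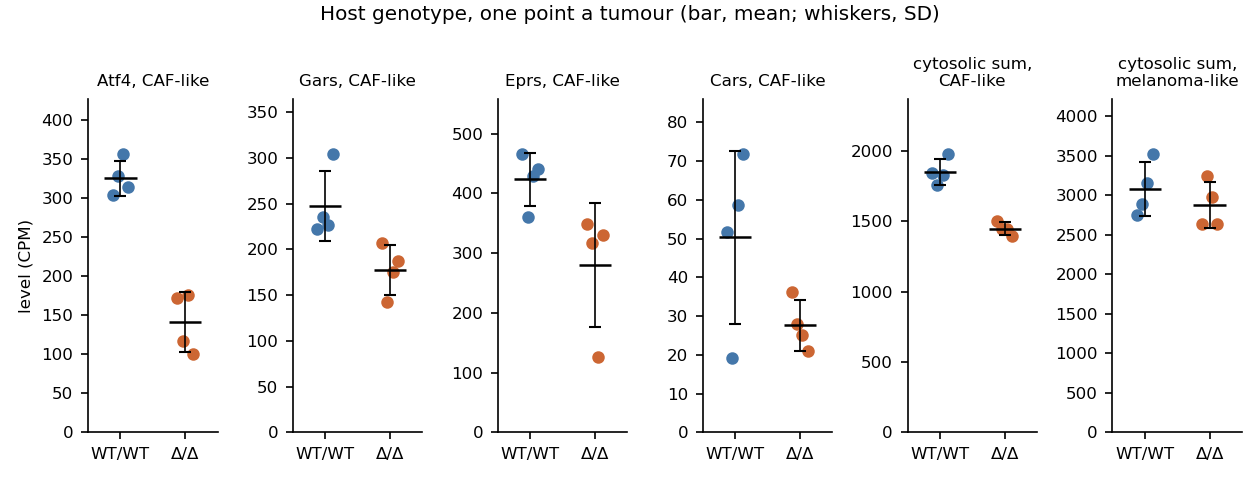
Level in CPM (linear axes from 0) of Atf4, Gars, Eprs and Cars in CAF-like cells and of the 20 cytosolic genes summed in CAF-like and in melanoma-like cells, by host genotype. Points are tumours (4 a genotype), the bar is the mean and the whiskers the SD, and the CAF-like sum is apart by genotype whereas the melanoma-like sum overlaps.

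In melanoma-like cells, which keep *Atf4* in both hosts, edgeR called 0 of 36 synthetases and 0.0319% of all 12556 genes. DESeq2 called 1 synthetase and 117 of all 12556 genes. By edgeR 4 cytosolic and 2 mitochondrial genes had an unadjusted p under 0.05, as did 1414 of all 12556 genes. The median log2 difference was -0.06 for cytosolic and -0.01 for mitochondrial genes. *Tars* was at 123, 130.4, 128 and 129 CPM in *Atf4* WT/WT hosts and at 98.2, 108, 114 and 104 CPM in *Atf4* Δ/Δ hosts, -0.26 ± 0.06 (adjusted p = 0.216 by edgeR, 0.0188 by DESeq2). *Iars* was at 82.6, 88.0, 84.3 and 80.7 CPM against 68.5, 79.4, 79.3 and 73.8, -0.16 ± 0.07 (adjusted p = 0.411). These and *Dars*, higher at 109 to 121 CPM against 97.2 to 108, were the genes without overlap, as were 2.88% of all genes in the lower and 3.48% in the higher direction. *Lars* (-0.29 ± 0.11), *Lars2* (-0.39 ± 0.15), *Mars2* (0.29 ± 0.12) and *Rars2* (-0.11) did not pass.

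Within the stress-response state host genotype made no difference that passed: edgeR called 0 of 35 synthetases and 0.0283% of all 10606 genes. DESeq2 called 0 synthetases. By edgeR 1 cytosolic and 2 mitochondrial genes had an unadjusted p under 0.05, as did 932 of all 10606 genes. *Aars* was at 150.2, 154, 156 and 176 CPM in *Atf4* WT/WT and at 181, 181, 190.3 and 197 CPM in *Atf4* Δ/Δ hosts, 0.23 ± 0.08 (adjusted p = 0.394), with no overlap (2.67% of all genes in that direction). *Lars2* was at 39.2, 45.6, 48.0 and 23.0 CPM against 23.2, 24.8, 22.5 and 25.1, -0.69 ± 0.18 (adjusted p = 0.270), and without the fourth *Atf4* WT/WT tumour it was -0.89 (adjusted p = 0.0040). Gm42418 was lowest in that tumour among the *Atf4* WT/WT hosts. *Dars* (0.17), *Nars* (-0.17), *Hars2* (0.46 ± 0.20) and *Nars2* (0.28) did not pass.

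The genotype difference in CAF-like cells was then set against that in melanoma-like cells in a single fit. *Atf4* differed between the classes by -1.27 ± 0.23 (adjusted p = 2.1e-04). edgeR called 0 of the 36 synthetases and 0.376% of all 12754 genes, and DESeq2 called 0 synthetases. By edgeR 2 cytosolic genes had an unadjusted p under 0.05, as did 737 of all 12754 genes. *Cars* (-0.80 ± 0.33, adjusted p = 0.636), *Wars* (-0.76 ± 0.34, adjusted p = 0.753) and *Aars* (-0.46) were the cytosolic genes with the smallest p, and *Tars2* (0.81), *Wars2* (-0.78) and *Lars2* (-0.28 ± 0.26) the mitochondrial ones. No synthetase passed the filter on low counts for a genotype test in TAM-like cells.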

How the data were processed

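Single-cell RNA of 8 tumours was profiled with 10x 3′ chemistry. The authors deposited UMI counts per gene and barcode, made with Cell Ranger 3.1.0 on GRCm38, and used Seurat 3.2.1, per the labels. From these counts, cells with 200 to 5000 genes and at most 7.5% mitochondrial UMIs were kept, integrated and clustered (Seurat 5.3.0), and named by marker lists. The tumours shared 201 barcodes over all pairs. Counts were summed per tumour and class (at least 10 cells) and tested with edgeR 4.0.16 (quasi-likelihood, TMM, Benjamini-Hochberg adjusted p under 0.05) across all genes passing filterByExpr. Comparisons of states and classes had the tumour as a block, genotype comparisons had none. Errors of log2 values are SE. DESeq2 1.42.0 and other settings served as alternatives, and the script was tested on simulated data. Intervals are exact, at 95%, and cover counting error only, with a floor of 3 counts. The genes given full statistics were those past the threshold with the smallest p, up to 5 a direction, or else the 3 of each compartment with the smallest p. Values per tumour were printed for up to 6 genes a comparison, and other genes were named after their values were seen. The genes, lists and tests were chosen with earlier results of these data known. A gene of the charging partners and a start-window stretch are not reported here. The labels name the tumours as biological replicates. Gene positions are from GENCODE's annotation of GRCm38 and start windows from RefSeq, which had entries for 27 of the 36 genes by symbol.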

Additional observations from a re-analysis of the deposited data

Results flagged for a closer look

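Of 42 groups of tumours examined, 2 held a tumour far from the others, and chance alone marks about 1 in 20 such groups. *Gars* in CAF-like cells of the fourth *Atf4* WT/WT tumour was at 303.8 CPM, with the other 3 at 223 to 236, a gap of 0.837 of the group's range. *Eprs* in CAF-like cells of the third *Atf4* Δ/Δ tumour was at 125.3 CPM, with the other 3 at 317 to 349, a gap of 0.857 of the range. That tumour held 10 CAF-like cells and 5 *Eprs* UMIs, and the part of this depth was not tested.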

How the results depend on the processing

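No gene given full statistics changed direction under an alternative. Other genes named by their values were not followed through the alternatives. Several list medians did: the mitochondrial one went from -0.16 to 0.0058 in TAM-like cells and from 0.16 to -0.04 in the genotype difference between classes with DESeq2, from -0.21 to 0.16 for genotype in CAF-like cells with no filter, and from -0.05 to 0.018 in the G2/M state led by *Espn* with the genes left in the clustering. The cytosolic one went from -0.04 to 0.018 in the hypoxia state with the genes left in and from -0.0070 to 0.017 for genotype in the stress-response state with the sex covariate, and without 1 tumour other medians within 0.06 of 0, and that of 0.16, also changed sign. Of the counts of synthetases called, 81 of 89 alternative settings and 118 of 126 settings without 1 tumour stayed within 1.5 times the main count. A count of 0 that stayed at 0, as in the genotype comparisons, was taken as within that limit. For genotype in TAM-like cells no synthetase passed the filter in the main test, so its count of 0 says nothing on stability. The settings outside the limit were as follows. For host genotype in melanoma-like cells DESeq2 called 1 gene (*Tars*), and in the stress-response state 1 (*Lars2*, -0.69, adjusted p = 1.14e-05) was called with no filter on low counts and 0 to 1 without 1 tumour. Without the tumour block 11 genes in place of 21 were called in the G2/M state led by *Cenpa* and 15 in place of 24 in that led by *Cenpf* (*Eprs* and *Gars* among those lost). In the interferon state the count of 1 became 0 with relative log expression, 0 with DESeq2, 3 with no filter, 0 without the block and 0 to 2 without 1 tumour. Without 1 tumour the counts were 16 to 20 in CAF-like cells, 13 to 18 in TAM-like cells and 26 to 29 in the stress-response state. With the replicate number as a block 0 synthetases were called in each genotype comparison, and the numbers do not pair the tumours, since the correlations of same-numbered tumours were -0.356 to -0.0556 in melanoma-like cells and 0.155, -0.138, -0.0050 and 0.113 in CAF-like cells, where 2 of the 4 numbers matched best with their own. Over all genes, genotype calls moved more: from 4 to 117 (DESeq2), 46 (no filter), 0 (replicate block) and 0 (sex covariate) in melanoma-like cells, from 2 to 4, 102, 0 and 0 in CAF-like cells, from 3 to 24, 143, 1 and 5 in the stress-response state, and from 2 to 5 (DESeq2), 13 (no filter), 5 (genes left in the clustering), 1 (sex covariate) and 0 (all immune cells) in TAM-like cells. For the genotype difference between classes they moved from 48 to 2 (DESeq2), 76 (no filter) and 0 (no tumour block), in the state led by *Ung* from 4728 to 7666 (genes left in) and 2790 (no tumour block), and in the interferon state from 628 to 249 (no tumour block). In TAM-like cells the medians moved from -1.23 to -1.14 (cytosolic) and from -0.16 to -0.06 (mitochondrial) with relative log expression, and to -1.04 and 0.0058 with DESeq2. All immune cells in place of TAM-like cells, chosen after seeing the data, gave 21 called and a cytosolic median of -1.07. Leaving the genes in the clustering matched 89.5% of the cells of the stress-response state over both clusterings and 32.8% of those of the G2/M state led by *Espn*, where *Rars*, *Wars*, *Farsb* and *Rars2* then lost their call. Both G1/S and S phase states then matched 1 cluster. The causes were not tested. In CAF-like cells 40826 to 1477144 UMIs a tumour, and in TAM-like cells 27957 to 246211, limit what can be seen of the mitochondrial genes.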
